A study of Mus musculus with 12 samples.

Results

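The genes followed here were the axon guidance families of ephrins and Eph receptors, semaphorins, plexins and neuropilins, read in tumourspheres of mouse mammary tumour lines. They were chosen by name: of 55573 genes in the count table, 53 carried a symbol of the Epha, Ephb, Efna, Efnb, Sema3 to Sema7, Plxn or Nrp series, and 44 of these held at least 30 counts summed over the 12 libraries. The 44 genes were 4 EPHA receptors, 4 EPHB receptors, 5 ephrin-A and 3 ephrin-B ligands, 6 class 3 semaphorins, 12 membrane semaphorins, 8 plexins and 2 neuropilins. The other 9 genes held at most 9 counts in all, and 3 of them (Epha3, Epha5 and Sema5b) held 0. Of the 44, 41 had enough counts to be tested, and Epha1, Sema4f and Plxnb3 (65, 66 and 55 counts) did not.

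Eph receptors are receptor tyrosine kinases that bind ephrins on neighbouring cells, and both partners signal into their own cell. Ephrin-A ligands are held in the membrane by a lipid anchor and ephrin-B ligands span it. Semaphorins signal through plexins, and the secreted class 3 members mostly need a neuropilin as co-receptor. First described in growing axons, these families also set cell contact, repulsion and migration in epithelia, vessels and carcinomas.

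RNA was sequenced from A1005, A1129 and A1471, 3 lines derived from separate spindloid (spindle-cell, mesenchymal) mammary tumours of MMTV-Metmt;Trp53fl/+;Cre mice. In that model the mammary MMTV promoter drives a mutant Met receptor, and 1 Trp53 allele is floxed. All groups, DMSO included, came from the same 3 lines and shared these alleles. The study states that the endogenous Met locus becomes amplified in this model, and copy number was not measured here. Each line grew as tumourspheres, free-floating spheres in a medium that holds EGF, bFGF and insulin, and received for 24 h the vehicle DMSO, the Met inhibitor Crizotinib, the FGFR inhibitor PD173074 or both inhibitors (combination). One library was made per line and treatment, so that n = 3 lines per treatment, and the age of the source mice was not given in the sources used here. Each library held between 13031492 and 17750476 counts, and of the 66 pairs of libraries 0 were identical. The mesenchymal label was checked against 10 markers in counts scaled to library depth (CPM, the unit of all levels below). They summed to between 3337 and 9751 CPM per library. In all 12 libraries Vim lay between 1903 and 3204 CPM, Fn1 between 377 and 5093 and Sparc between 129 and 1792. Twist1 lay between 44.5 and 132 CPM, Zeb1 between 52.8 and 102 and Zeb2 between 21.8 and 86.8. Yet Cdh2, a defining mesenchymal cadherin, and Snai2 held only 18 and 74 counts in all. Col1a1 and Col1a2 were above 1 CPM in A1005 alone. Of 11 epithelial markers Krt5, Cldn7 and Esrp1 had 0 counts and Cdh1 held 19 in all, but Krt18 was measured in every library (up to 49.4 CPM), Krt8 and Krt19 reached 34.0 and 43.95 CPM in A1005, and the list summed to between 7.62 and 86.6 CPM per library. Markers of endothelium, a cell type rich in ephrins and neuropilins, summed over 9 genes to between 0.691 and 3.47 CPM per library. The 9 leukocyte markers summed to between 15.1 and 90.6 CPM per library, most of it from Cd14 and Cd68, which were measured in all lines (at least 6.79 and 4.21 CPM). Ptprc, the defining gene of the leukocyte list, reached 13.6 to 20.5 CPM in A1005 and at most 0.138 CPM in the other lines, and Lyz2 had 0 counts.

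Vehicle-treated tumourspheres expressed members of every family. Set per kilobase of exon so that genes can be compared, the highest mean levels belonged to Plxnb2, a receptor of class 4 semaphorins (52.2 ± 25.6 CPM per kb, SD, n = 3), Epha2, a receptor of ephrin-A1 (38.7 ± 1.19), the co-receptor Nrp2 (35.3 ± 17.5), the lipid-anchored semaphorin Sema7a (31.1 ± 40.6) and Ephb4, the receptor of ephrin-B2 (24.7 ± 4.51). The spread between lines differed greatly between these genes. In A1005, A1129 and A1471 the Epha2 level was 39.4, 37.3 and 39.4 CPM per kb, so that the lines were nearly alike. The Sema7a level was 4.73, 10.8 and 77.9 CPM per kb in the same order, and the lines stood far apart. Neighbours in the order from Plxnb2 to Ephb4 overlapped in their ranges over lines, and with the longest transcript in place of the exon union Nrp2 came before Plxnb2 and Epha2. With the combination the mean Epha2 level was 2.10 CPM per kb, which moved it from rank 2 to rank 26 of the 44 genes, Nrp2 took rank 1, and Ephb6 went from rank 26 to rank 8.

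**Figure D1:**
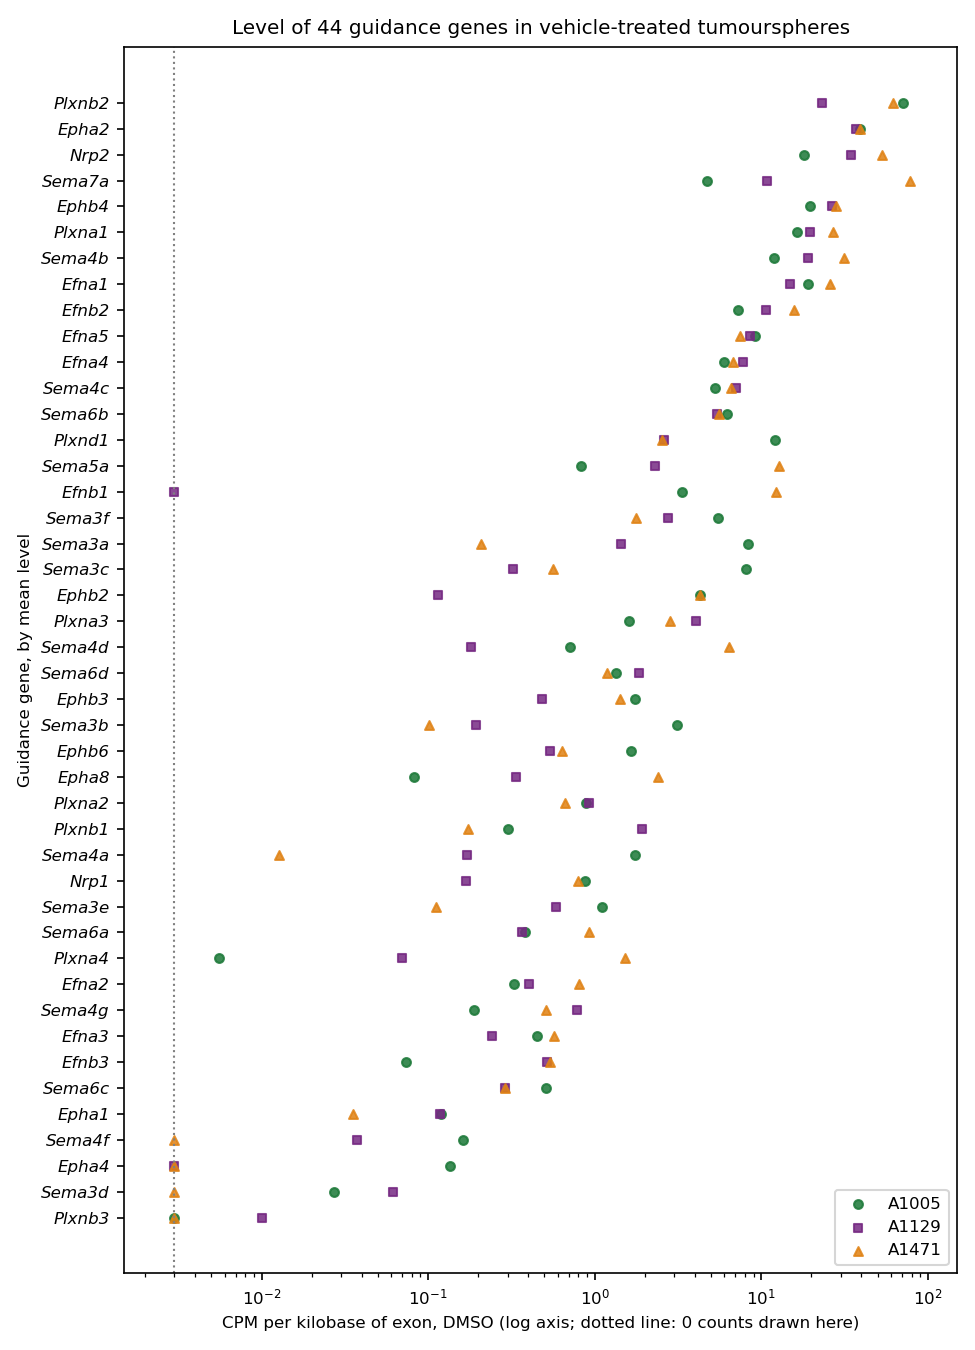
Level of each of the 44 guidance genes in DMSO, as CPM per kilobase of exon on a log axis, with 1 point per cell line and genes ordered by their mean. Points at the dotted line had 0 counts; Epha2 has nearly the same level in all lines, while Sema7a, Efnb1 and Sema3c are spread over the lines.

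Much of the variation lay between the tumour lines. The sum of squares of log2 CPM over the 12 libraries was split for each tested gene into a part between lines, a part between treatments and a rest. The median share between lines was 73.3% over the 41 guidance genes and 52.1% over all 13836 tested genes, and the line share was larger than the treatment share in 30 of 41 guidance genes (73.2%, against 62.1% of all tested genes). This majority turned over without A1005: the line share was then larger in 17 of 41 guidance genes (41.5%, against 37.4% of all tested genes), and the median line share was 38.5% beside a median treatment share of 54.4% (25.4% and 51.9% over all tested genes). Several genes were close to an on or off state by line. Efnb1, a transmembrane ligand of EPHB receptors, had 149 to 401 counts per library in A1005, at most 1 count in A1129 and 534 to 614 counts in A1471 (line share 99.6%). Epha4, a receptor that binds both ephrin classes, was counted in A1005 only, with 0 counts in all 8 libraries of the other lines, which allows up to 3 counts in each. Sema4a, a class 4 membrane semaphorin, lay at 7.86 to 10.8 CPM in A1005, 0.564 to 0.924 CPM in A1129 and at most 0.214 CPM in A1471. Ephb2, a receptor of ephrin-B ligands, was between 1.45 and 2.18 CPM in A1129 and between 19.1 and 57.4 CPM in the other lines. At the other end stood Epha2, Sema6b and Ephb6, with treatment shares of 93.7%, 93.3% and 87.7%. Line and tumour of origin cannot be told apart, since each line comes from 1 tumour, and the part of the Col1a1-positive and Ptprc-positive state of A1005 in these line differences was not tested.

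**Figure D2:**
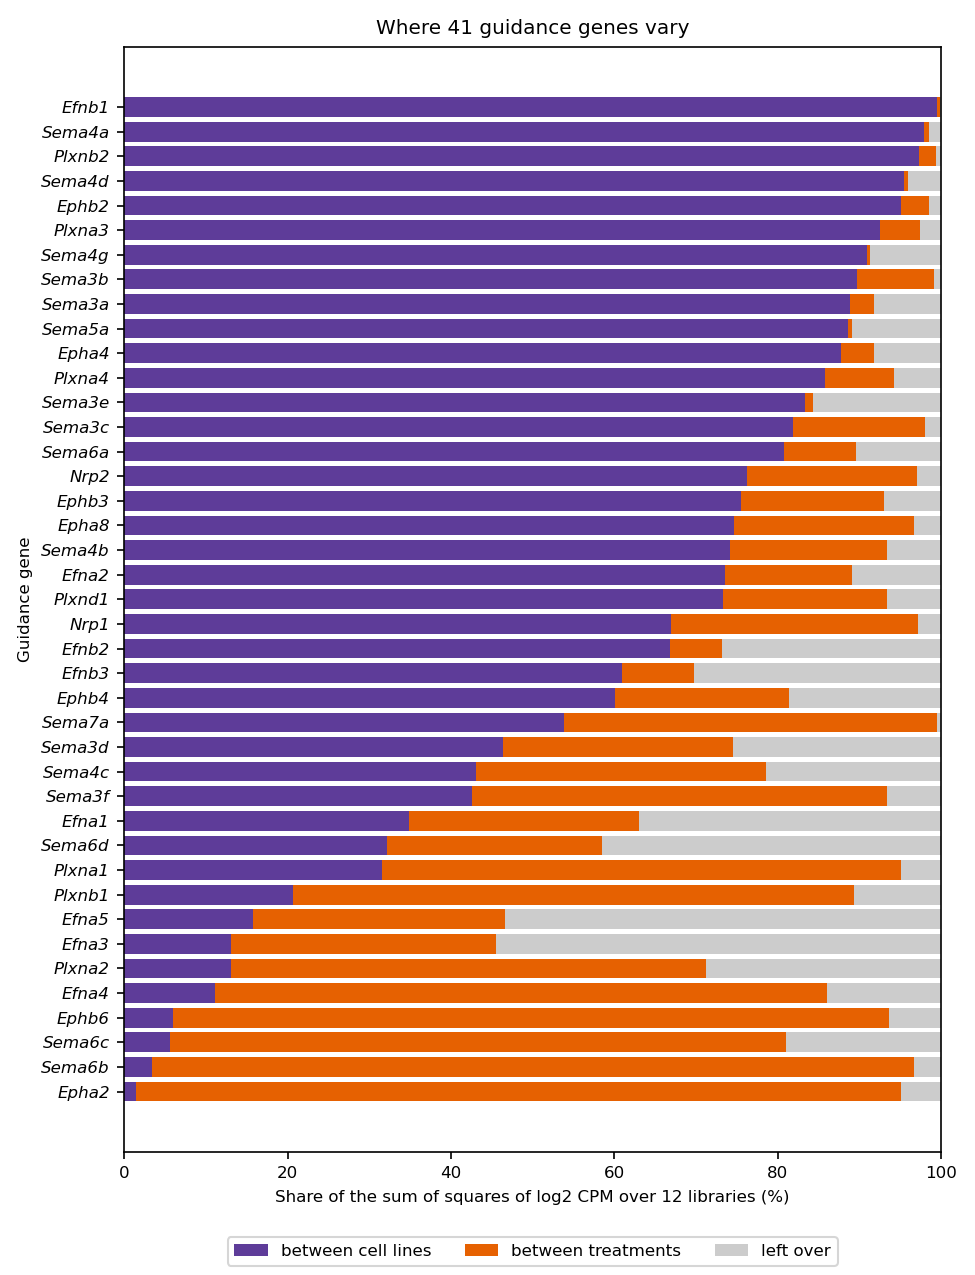
Share of the sum of squares of log2 CPM over 12 libraries that lies between cell lines, between treatments and in the rest, for each of the 41 tested guidance genes, as stacked bars that sum to 100%. The line share is the larger in 30 genes, and Epha2, Sema6b, Ephb6, Sema6c and Efna4 form the end where the treatment share is larger.

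The main question of the study was what happens when Met and FGFR are blocked together, and the combination changed 7 of the 41 tested guidance genes against DMSO. Epha2 and Sema6b fell, and Ephb6, Efna4, Sema6c, Plxna1 and Plxna2 rose (edgeR quasi-likelihood test, adjusted p under 0.05 over all tested genes). That is 17.1% of the guidance genes, beside 14.4% of all tested genes (6.1% higher and 8.28% lower), so the share called was near the background. This fit did not use the pairing of libraries by line. With the cell line as a block, 27 guidance genes passed, 20 of them higher and 7 lower (65.9%, beside 54.8% of all tested genes, 28.6% higher and 26.2% lower). The median log2 fold change of the guidance genes was 0.39 without and 0.55 with the block, beside 0.02 and 0.03 over all tested genes. The CPM ranges of combination and DMSO did not overlap for 6 genes that were higher and 2 that were lower (19.5%, beside 29.9% of all tested genes). All lines moved the same way in 24 genes, 18 up and 6 down (58.5%, beside 65.8%). In bulk RNA, fewer cells that express a gene and less RNA of it per cell cannot be told apart, which holds for every value below.

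**Figure D3:**
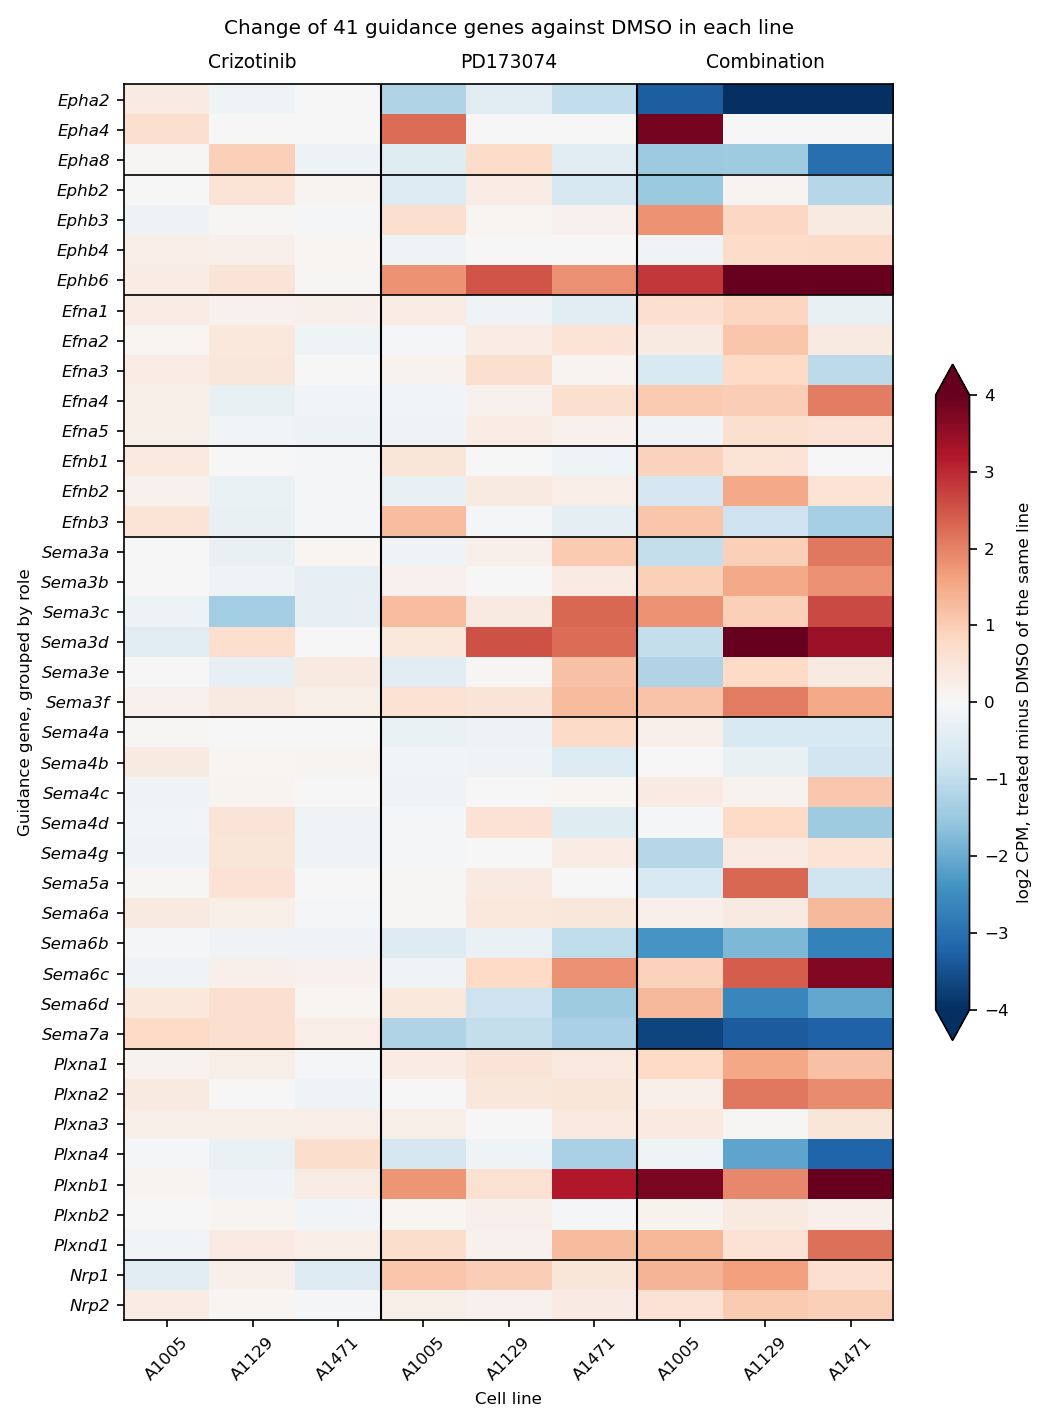
Heat map of the log2 CPM difference between each inhibitor treatment and DMSO of the same line, for 41 guidance genes grouped by role (rows) and 3 treatments by 3 lines (columns). Colours saturate at 4 log2 units in either direction; the Crizotinib columns are pale, and Epha2, Sema6b and Sema7a are blue while Ephb6 and Plxnb1 are red in all lines of the combination.

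Among the receptors of ephrins, Epha2 and Ephb6 moved in opposite directions and by similar amounts. Epha2 (ENSMUSG00000006445, chr4:141301240-141329384, plus strand, build mm10), a receptor kinase often abundant in basal-like carcinoma, stood at 184, 175 and 184 CPM in DMSO, in the order A1005, A1129 and A1471. With the combination it was 18.6, 4.20 and 6.64 CPM, which is 10.1%, 2.41% and 3.60% of DMSO. All 3 combination libraries thus lay far below all DMSO libraries (log2 fold change −4.20 ± 0.50, SE, adjusted p = 9.2e-04). Ephb6 (ENSMUSG00000029869, chr6:41605482-41620509, plus strand), an Eph receptor whose kinase domain lacks activity, was at 6.25, 2.04 and 2.42 CPM in DMSO. It reached 45.1, 102 and 43.5 CPM with the combination, again with no overlap (4.16 ± 0.67, adjusted p = 0.0038). Both calls depended on the number of lines: Epha2 had an adjusted p of 0.082 without A1471, and Ephb6 of 0.101 without A1129 and 0.095 without A1471, although both stayed under 0.05 in each of these cases with the line as a block.

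The 250 bases before the RefSeq start of these genes (build GRCm38.p6, plus strand) are shown because these 2 receptors changed most among the 7 called genes; capitals mark a cyclic AMP response element, TGACGTCA, the only one found in a guidance gene window, and Ephb6 held none of the motifs searched.
Epha2, chr4:141300971-141301220: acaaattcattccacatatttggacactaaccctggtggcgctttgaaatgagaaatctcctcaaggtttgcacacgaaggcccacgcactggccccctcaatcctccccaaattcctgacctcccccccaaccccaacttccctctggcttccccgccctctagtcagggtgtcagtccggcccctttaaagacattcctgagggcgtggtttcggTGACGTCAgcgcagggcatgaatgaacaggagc
Ephb6, chr6:41605261-41605510: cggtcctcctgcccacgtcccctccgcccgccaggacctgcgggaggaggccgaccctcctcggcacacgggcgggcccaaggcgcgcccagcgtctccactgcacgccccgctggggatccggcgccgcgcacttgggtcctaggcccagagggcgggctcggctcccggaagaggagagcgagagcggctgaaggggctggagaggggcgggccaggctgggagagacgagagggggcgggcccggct
The element of Epha2 lay 33 to 26 bases before the start. The windows differed in base composition, with 55.6% GC and 9 CpG for Epha2 and 76.8% GC and 27 CpG for Ephb6, beside a median of 52.4% GC over all windows of that length. The end of the Ephb6 window runs into the first exon of the GENCODE gene model, and that of Epha2 stops short of it.

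The remaining tested Eph receptors passed only where the line was used as a block, a fit that called 54.8% of all tested genes. Epha8, an ephrin-A receptor, was at 0.390, 1.58 and 11.3 CPM in DMSO and 0.0556, 0.501 and 1.28 CPM with the combination, so that every line was lower while the ranges overlapped. Its log2 fold change was −2.60 ± 0.36 with the block (adjusted p = 2.5e-04) and −2.85 ± 1.63 without (adjusted p = 0.29), and the A1005 value rested on 5 counts against 1. Epha4 was measured in 1 line, where it was 1.09 CPM in DMSO, 5.68 CPM with PD173074 and 17.3 CPM with the combination (14, 94 and 312 counts). Its blocked call (3.91 ± 0.53, adjusted p = 0.0044) therefore rests on A1005 alone. Ephb2 was lower with the block (−1.08 ± 0.21), with 53.9, 1.45 and 53.8 CPM in DMSO and 19.1, 1.57 and 24.4 CPM with the combination, with A1129 nearly level. Ephb3 and Ephb4 were higher with the block (1.08 ± 0.27 and 0.49 ± 0.18). Ephb4 was at 90.6, 123 and 130 CPM in DMSO and 81.8, 205 and 221 CPM with the combination, slightly lower in A1005. Epha1 was at most 1.38 CPM, and 236 bases of its exons overlap those of Zyx on the opposite strand, which held 1796 to 5370 counts, so its counts are uncertain.

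Of the 8 ephrins, only Efna4 passed, both without and with the block. Over all tested genes, 14.4% passed without the block and 54.8% with it. Efna4 (ENSMUSG00000028040, chr3:89333390-89338028, minus strand), a lipid-anchored ligand of EPHA receptors, went from 9.52, 12.5 and 10.8 CPM in DMSO to 19.8, 24.8 and 44.8 CPM with the combination. All combination values were above all DMSO values (1.44 ± 0.34, adjusted p = 0.0199 without the block). In that fit the adjusted p was 0.154 without A1129 and 0.186 without A1471, where 324 and 120 of all tested genes passed. Efna1, the main ligand of Epha2, was at 35.0, 27.2 and 47.6 CPM in DMSO and 55.9, 48.9 and 38.6 CPM with the combination, with an adjusted p of 0.44 without and 0.11 with the block. Efnb2, the ligand of Ephb4, was at 49.8, 73.5 and 108 CPM in DMSO and 31.2, 208 and 159 CPM with the combination, lower in A1005 and higher in the others. The log2 fold changes of the 8 ligands lay between −0.74 for Efnb3 and 1.44 for Efna4.

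None of the 6 class 3 semaphorins, which are secreted, was called in the unblocked fit, where 4 had a log2 fold change above 0 and Sema3a and Sema3e were at −0.31 and −0.13. With the block 4 of the 6 passed, beside 54.8% of all tested genes: Sema3b, Sema3c, Sema3d and Sema3f. Sema3f, a ligand of Nrp2 studied as a tumour suppressor, was at 28.6, 14.3 and 9.19 CPM in DMSO and 63.9, 59.2 and 26.7 CPM with the combination. Every line was higher, while the ranges of the 2 groups overlapped (1.60 ± 0.22 with the block, adjusted p = 2.3e-04; 0.0996 without). Sema3c, a ligand of both neuropilins, was at 57.8, 2.30 and 4.01 CPM in DMSO, against 200, 4.57 and 25.6 CPM with the combination. It was led by A1005 in level, and all lines were higher (1.90 ± 0.30 with the block, adjusted p = 4.7e-04; 0.59 without). Sema3b, another gene studied as a tumour suppressor, was at 14.8, 0.921 and 0.483 CPM in DMSO and 28.8, 2.88 and 2.04 CPM with the combination (1.41 ± 0.26 with the block, adjusted p = 0.0012). Sema3d was nearly a single-line result. It held 3, 8 and 0 counts in DMSO and 1, 1050 and 18 counts with the combination, that is 0.0556, 65.8 and 1.36 CPM. The blocked log2 fold change of 5.82 ± 1.17 (adjusted p = 0.0020) carries that spread, and without A1129 Sema3d no longer passed the filter on low counts. The same library, A1129 with the combination, also held the highest level of the neuronal tubulin gene Tubb3, 30.6 CPM, and the 9 neuronal and glial markers summed to 35.1 CPM there against 4.06 CPM in the lowest combination library, while Rbfox3 and Olig2 were at 0 counts in it, and their part in the Sema3d value was not tested. Sema3a and Sema3e did not pass in either fit, and their sign differed between the fits (0.69 and 0.02 with the block).

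Of the 11 tested membrane semaphorins, Sema6b fell and Sema6c rose in the fit without the block, which called 14.4% of all tested genes. With the block 3 were higher and 3 lower, beside 28.6% and 26.2% of all tested genes. Sema6b (ENSMUSG00000001227, chr17:56123085-56140343, minus strand), a transmembrane ligand of class A plexins, stood at 24.9, 21.5 and 22.3 CPM in DMSO and at 4.72, 6.08 and 3.32 CPM with the combination. The 2 groups were far apart and each was tight (−2.28 ± 0.27, adjusted p = 9.2e-04). Of the 7 called genes, Sema6b alone kept its call in the fit without the block when any 1 line was left out, with adjusted p between 0.0173 and 0.0393. In that fit 2021, 324 and 120 of all tested genes were called without A1005, A1129 and A1471, against 1990 with all lines. With the block 27, 22 and 20 guidance genes were called in the same order. Sema6c (ENSMUSG00000038777, chr3:95160457-95174024, plus strand), of the same class, went from 3.04, 1.71 and 1.73 CPM to 5.89, 9.71 and 24.2 CPM, higher in every line and most in A1471 (2.62 ± 0.58, adjusted p = 0.016; 0.168 without A1129 and 0.161 without A1471).

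Sema7a showed how much the line block mattered. Sema7a (ENSMUSG00000038264, chr9:57940112-57962865, plus strand) signals through integrins and plexin C1, whose gene Plxnc1 had 2 counts over the 12 libraries. Its level was 15.6, 35.6 and 257 CPM in DMSO and 1.11, 3.38 and 27.0 CPM with the combination. Each line lost a similar proportion, to 7.12%, 9.51% and 10.5% of its own DMSO value, although A1471 with the combination was still above A1005 with DMSO. The log2 fold change was −3.37 ± 0.18 with the block (adjusted p = 8.9e-07) and −3.30 ± 1.60 without (adjusted p = 0.21). The remaining sum of squares, 0.444% of the total, was what line and treatment together left. Sema4b, Sema4c and Sema6a passed with the block at smaller sizes (−0.36, 0.55 and 0.72). Sema5a, a semaphorin with thrombospondin repeats, was at 15.4, 43.3 and 238 CPM in DMSO and 10.1, 214 and 136 CPM with the combination, so that A1129 and A1471 crossed over, and it did not pass.

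The windows of the lowered semaphorins are shown beside that of Epha2 (GRCm38.p6, minus strand for Sema6b, plus strand for Sema7a); RefSeq gives Sema6b a first start at the outer end of the gene and a second start inside an intron, and capitals mark an AP-1 element, TGANTCA, found at the second start only.
Sema6b, first start, chr17:56140344-56140593: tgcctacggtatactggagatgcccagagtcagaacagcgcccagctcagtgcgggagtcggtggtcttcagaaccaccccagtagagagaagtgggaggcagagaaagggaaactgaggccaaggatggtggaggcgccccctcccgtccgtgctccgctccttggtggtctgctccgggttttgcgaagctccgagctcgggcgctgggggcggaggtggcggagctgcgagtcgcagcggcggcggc
Sema6b, second start, chr17:56133853-56134102: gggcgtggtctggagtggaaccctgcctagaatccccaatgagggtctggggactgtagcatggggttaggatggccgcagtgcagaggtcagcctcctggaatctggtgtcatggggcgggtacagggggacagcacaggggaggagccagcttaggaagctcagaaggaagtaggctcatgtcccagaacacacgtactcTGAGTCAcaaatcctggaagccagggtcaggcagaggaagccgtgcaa
Sema7a, chr9:57939862-57940111: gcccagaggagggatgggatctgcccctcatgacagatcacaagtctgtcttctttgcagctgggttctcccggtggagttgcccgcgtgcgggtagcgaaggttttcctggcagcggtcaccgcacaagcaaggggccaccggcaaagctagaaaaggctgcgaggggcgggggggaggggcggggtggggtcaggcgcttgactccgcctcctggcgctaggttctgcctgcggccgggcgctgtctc
The AP-1 element of Sema6b lay 48 to 42 bases before the second start. RefSeq windows were found for 38 of the 44 guidance genes, 51 windows in all (Efnb3, Sema6a, Sema3b, Plxna4, Plxna1 and Sema3f were not searched here), and 4 motifs were searched on both strands: AP-1 (TGANTCA), the cyclic AMP response element (TGACGTCA), an ETS element (CCGGAAGT) and a FoxO element (GTAAACA), none of which contains another. Of all 32851 windows, 6.75%, 1.55%, 2.88% and 3.17% held them. Among the guidance genes AP-1 was found in Sema4c, Sema4d and Sema6b, the cyclic AMP response element in Epha2, and ETS and FoxO in 0 windows. The motifs and the genes printed were chosen after their expression was seen, and a match or its absence describes the letters of these windows only.

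Plexins rose where they changed, with 1 exception. Plxna1 (ENSMUSG00000030084, chr6:89316314-89362620, minus strand), which pairs with neuropilins to bind class 3 semaphorins, was at 150, 178 and 243 CPM in DMSO and 259, 519 and 544 CPM with the combination. The groups did not overlap (1.21 ± 0.32, adjusted p = 0.033 without the block). In that fit the adjusted p was 0.328 without A1129 and 0.167 without A1471, where 324 and 120 of all tested genes passed. Plxna2 (ENSMUSG00000026640, chr1:194618218-194816869, plus strand) was at 15.3, 15.9 and 11.3 CPM in DMSO and 17.6, 69.3 and 42.1 CPM with the combination, so the change in A1005 was small (1.60 ± 0.44, adjusted p = 0.039). It lost its call when A1129 or A1471 was left out (adjusted p = 0.297 and 0.292), and with the block as well (adjusted p = 0.094 and 0.084). Plxnb1 (ENSMUSG00000053646, chr9:109095389-109119917, plus strand), a receptor of Sema4d known to associate with Met, was at 2.89, 18.5 and 1.66 CPM in DMSO and 41.1, 70.6 and 77.9 CPM with the combination. All combination libraries were above all DMSO libraries, yet the wide DMSO group left it at an adjusted p of 0.078 (3.04 ± 1.02), against 4.9e-04 with the block (3.60 ± 0.57). Plxna4 was the exception. It was an A1471 gene with 0.0781, 0.987 and 21.5 CPM in DMSO, 0.0556, 0.125 and 2.19 CPM with the combination, and 1 count in A1005 under both (−3.15 ± 0.50 with the block, adjusted p = 5.1e-04; 0.0859 without A1471 and 0.45 without the block). Plxnd1, Plxna3 and Plxnb2 were higher with the block (1.40 ± 0.28, 0.31 ± 0.12 and 0.24 ± 0.09). Exons of Plxna1, Plxnb1 and Efna4 overlap genes on the opposite strand that held at most 17, 8 and 13 counts per library.

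Both neuropilins, co-receptors for class 3 semaphorins and for VEGF, were higher in every line with the combination and passed with the block only. The blocked fit called 54.8% of all tested genes. Nrp1 was at 8.59, 1.64 and 7.74 CPM in DMSO and 22.2, 5.39 and 12.4 CPM with the combination (1.20 ± 0.21, adjusted p = 8.7e-04). Nrp2 was at 215, 410 and 628 CPM in DMSO and 324, 854 and 1229 CPM with the combination (0.88 ± 0.14, adjusted p = 4.2e-04). Without the block the adjusted p was 0.39 and 0.33.

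**Figure D4:**
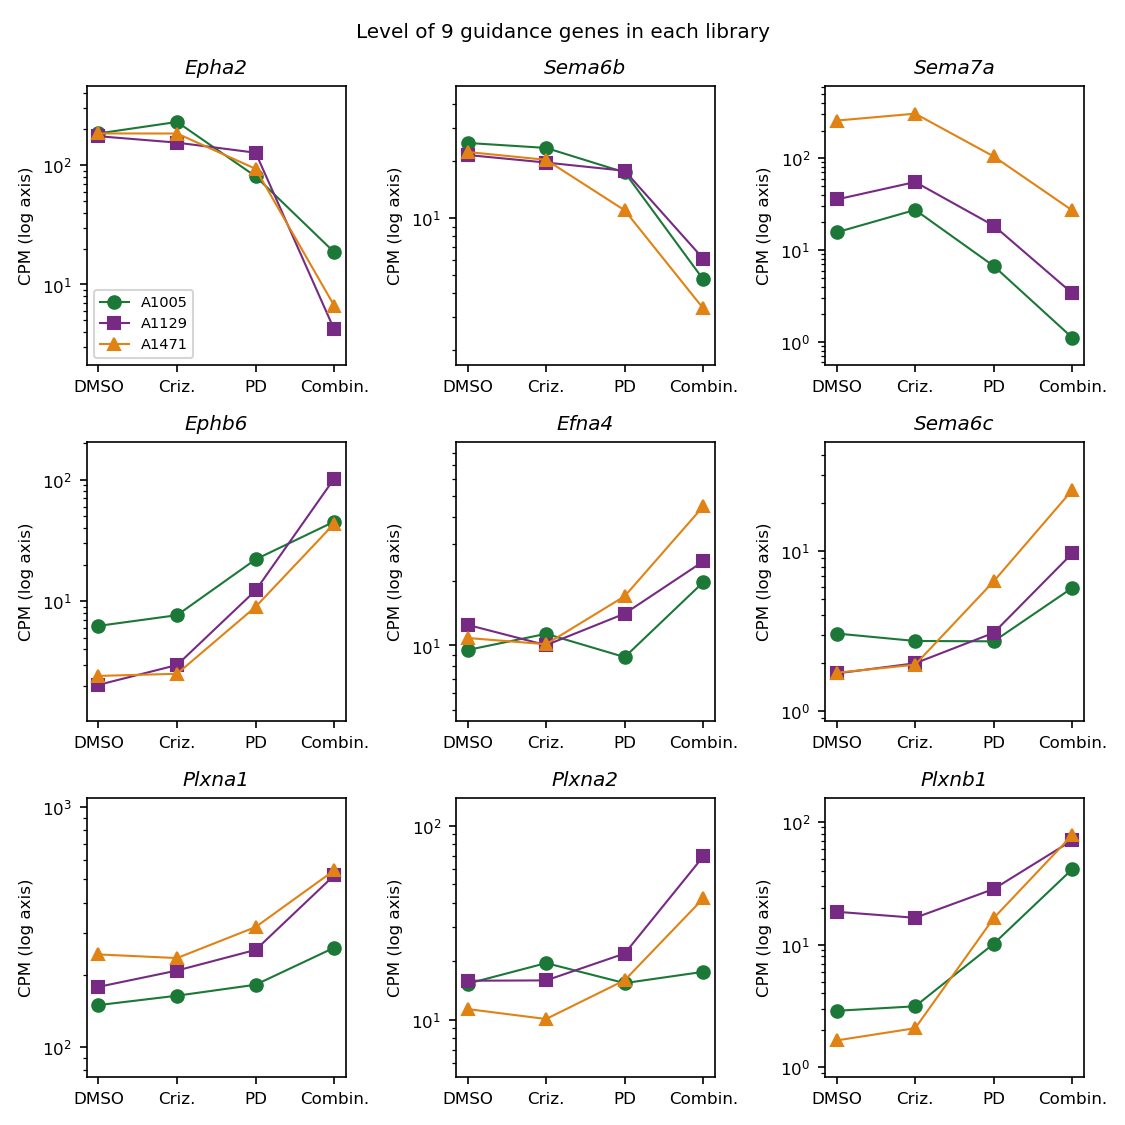
CPM on a log axis of 9 guidance genes in each of the 12 libraries, with 1 line per cell line across DMSO, Crizotinib (Criz.), PD173074 (PD) and the combination (Combin.). Epha2, Sema6b and Sema7a are lowest with the combination and Ephb6, Efna4, Sema6c, Plxna1 and Plxnb1 are highest there in every line, while Plxna2 is nearly flat in A1005.

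**Figure D5:**
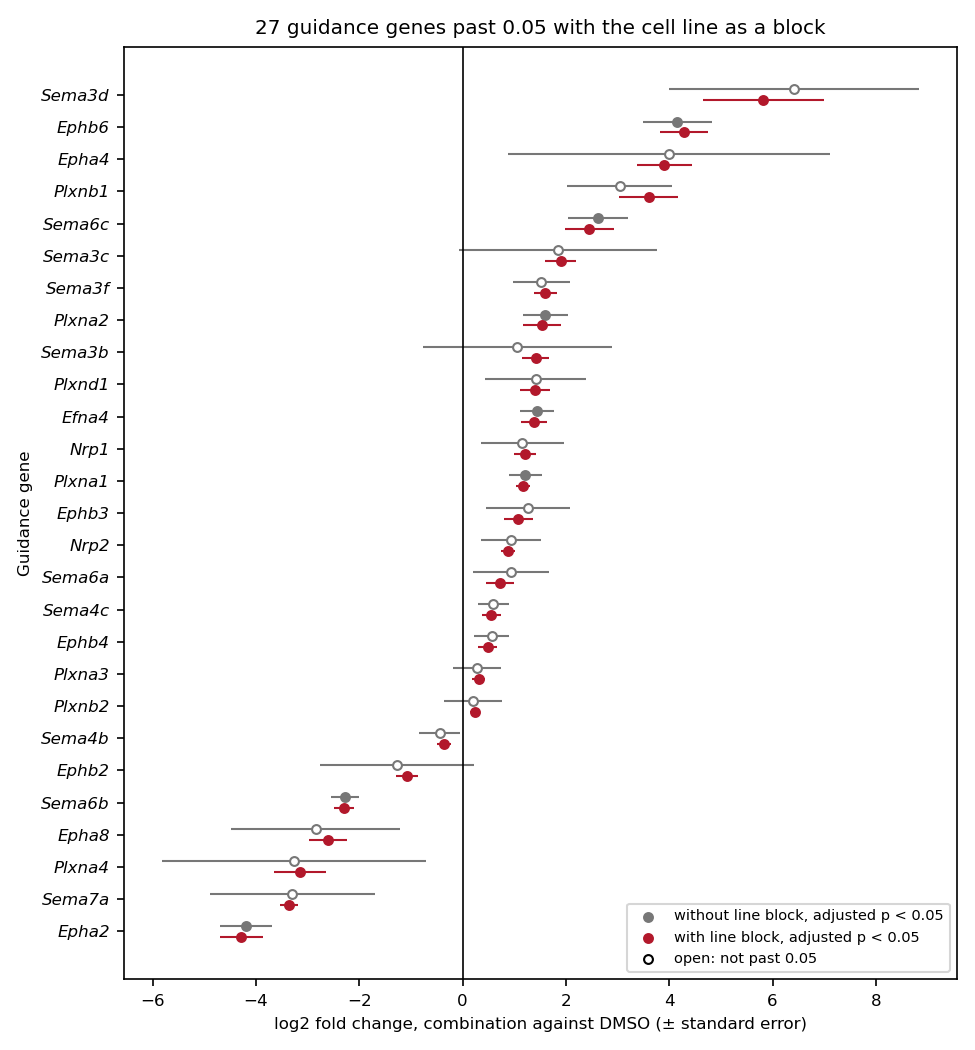
Log2 fold change of combination against DMSO with its standard error for the 27 guidance genes called with the cell line as a block, in the fit without (grey) and with (red) the block. Filled points passed an adjusted p of 0.05; 7 genes are filled in grey, and the estimates of both fits lie close together while the grey standard errors are wider for Epha4, Plxna4, Sema3b, Sema3c and Sema7a.

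Crizotinib alone left the guidance genes close to DMSO. None of the 41 passed (0% of all tested genes did), and DESeq2 called 0 (0.00356% of the genes it tested). At an unadjusted p under 0.05 there were 0 guidance genes, beside 18 of all 13836 tested genes. With the block there was 1, beside 258 of 13836. No gene had CPM ranges apart from DMSO (1.69% of all tested genes did). Epha2 was at 230, 154 and 184 CPM and Sema6b at 23.4, 19.6 and 20.3 CPM, within or beside their DMSO values. Sema7a was at 27.4, 55.1 and 306 CPM, above DMSO in every line, opposite in direction to PD173074 and the combination, and did not pass (0.56 ± 0.15 with the block, adjusted p = 1).

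PD173074 alone moved few guidance genes past the test. Without the block 0 of 41 were called (0% of all tested genes), and 0 by DESeq2 (0.119% of the genes it tested). At an unadjusted p under 0.05 there was 1, beside 307 of all 13836 tested genes. With it Ephb6, Sema3c and Sema7a were called (7.32%, beside 2.14% of all tested genes). Ephb6 was at 22.1, 12.2 and 8.97 CPM, above every DMSO value and below every combination value (2.03 ± 0.45, adjusted p = 0.0496). Sema7a was at 6.71, 18.5 and 105 CPM, lower than DMSO in each line (−1.15 ± 0.15, adjusted p = 0.0080). Sema3c was at 136, 3.01 and 20.1 CPM (1.43 ± 0.30, adjusted p = 0.042). These 3 calls did not all hold when a line was left out. Without A1005, 1 guidance gene was called, in the lower direction, beside 59 of all 13568 tested genes. Without A1129 or A1471, 0 were called, beside 131 of 13791 and 4 of 14021. Epha2 was at 80.4, 127 and 93.0 CPM and Sema6b at 17.4, 17.7 and 11.0 CPM, both below all DMSO values, though their adjusted p was 0.29 and 0.13 with the block. Ranges apart from DMSO were found for these 2 and Ephb6 (6.42% of all tested genes).

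The combination was then set against each inhibitor, comparisons that share the combination libraries with the one above. Against Crizotinib, 6 guidance genes were called (13.2% of all tested genes): Epha2 (−4.26 ± 0.51), Sema6b (−2.16 ± 0.27), Ephb6 (3.86 ± 0.66), Efna4 (adjusted p = 0.0172), Sema6c (2.58 ± 0.58) and Plxna1 (1.12 ± 0.32). The count was 1 of 43 without A1471, 4 of 41 without A1129 and 9 of 40 without A1005. Over all tested genes it was 109 of 14021, 350 of 13791 and 1835 of 13568 in the same order, so the calls moved with the background. When only these libraries were fitted it was 3 of 40, beside 616 of 12869. With the block 24 were called, beside 53.4% of all tested genes. Against PD173074, only Epha2 (−3.35 ± 0.49, adjusted p = 0.0039) and Sema6b (−1.70 ± 0.27, adjusted p = 0.0060) were called, beside 4.77% of all tested genes. Both calls were lost without A1129 and without A1471, where 0 guidance genes passed, beside 60 of all 13791 and 60 of all 14021 tested genes. Without A1005, 3 guidance genes were called, 2 higher and 1 lower, beside 627 of 13568, so the calls of Epha2 and Sema6b did not both hold there. DESeq2 without the block called 6, beside 12.1% of the genes it tested. With the block 19 were called, beside 39.8%, among them Sema7a (−2.21 ± 0.17) and Ephb6 (2.26 ± 0.41).

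Whether the combination differed from the sum of its parts was tested as the departure from additivity on the log2 scale, that is the combination effect minus the Crizotinib effect minus the PD173074 effect. Epha2 was the 1 guidance gene called, beside 0.918% of all tested genes. Its Crizotinib effect was 0.07 ± 0.44, its PD173074 effect −0.85 ± 0.44 and its combination effect −4.20 ± 0.50, which left a departure of −3.41 ± 0.64 (adjusted p = 0.044). Leaving out any 1 line ended this call, with 0 guidance genes and 0 of all tested genes called each time. DESeq2 called 2, beside 3.64%. With the block 8 genes departed, beside 16.2% of all tested genes (5.46% higher and 10.7% lower). Epha2 (−3.50 ± 0.53), Epha8 (−2.76 ± 0.47), Sema6b (−1.58 ± 0.27), Sema7a (−2.77 ± 0.23) and Plxna4 (−2.54 ± 0.65) were lower than the sum, and Efna4 (1.18 ± 0.35), Sema3b (1.35 ± 0.38) and Plxna1 (0.69 ± 0.19) were higher. Without A1471 this blocked count was 2, beside 423 of all 14021 tested genes, and without A1005 it was 11, beside 1679 of 13568. Ephb6, at 1.97 ± 0.63 (adjusted p = 0.057), did not pass.

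Genes that carry or neighbour these signals were counted from 3 lists. The first held 54 tested genes tied to Eph and plexin signalling, mostly intracellular effectors with some surface partners such as Met, Erbb2, Itgb1 and L1cam. Of these 2 rose and 2 fell with the combination (7.41%, beside 14.4% of all tested genes), and 18 were higher and 12 lower with the block (55.6%, beside 54.8%). Ngef (ephexin, an exchange factor of small GTPases that binds EPHA receptors) went from 3.75, 17.1 and 8.08 CPM to 0.556, 1.19 and 0.679 CPM (−3.56 ± 0.71, adjusted p = 0.0096), lower in every line. The others were Rap1a, a small GTPase on which the plexin catalytic domain acts (−0.68, adjusted p = 0.034), Arhgef11, an exchange factor recruited by class B plexins (0.47, adjusted p = 0.047), and Farp1, an exchange factor linked to class A plexins (0.59, adjusted p = 0.047). Of 14 tested genes of other guidance families, the repulsive guidance genes Rgma (2.35, adjusted p = 6.9e-04) and Rgmb (1.19, adjusted p = 0.027) rose and 0 fell (14.3%, beside 14.4%), with 8 higher and 2 lower (Ntn1 and Unc5b, a netrin and a netrin receptor) with the block (71.4%, beside 54.8%). Of 7 tested VEGF family genes that share the neuropilins, Pgf fell (−3.41, adjusted p = 0.018), and Vegfa was lower with the block only (−1.09, adjusted p = 1.3e-05). Pgf was low throughout, at 1.48, 3.81 and 0.898 CPM in DMSO and 0.278, 0.125 and 0.151 CPM with the combination. That made 1 of 7 without the block (14.3%, beside 14.4% of all tested genes) and 2 of 7 with it (28.6%, beside 54.8%). The median log2 fold changes of the lists were 0.19, 1.08 and −0.02, beside 0.02 over all tested genes.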

How the data were processed

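The authors deposited raw counts, the number of reads assigned to each Ensembl gene, for 12 libraries. Total RNA was sequenced on a NextSeq instrument, and the submitters' processing notes name bcl2fastq, STAR, HTSeq and mm10. Versions, strand setting and annotation release are not given in the sources used here, so antisense overlaps are uncertain.

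Genes were kept with edgeR's filterByExpr (minimum count 10, minimum total 15), scaled by TMM and fitted over all 12 libraries with the edgeR 4.0.16 quasi-likelihood test in R 4.3.3, unpaired as the study states, with Benjamini-Hochberg adjustment over 13836 genes and a threshold of 0.05. The pairing by line comes from the labels. Libraries of 1 line deviated together (r from 0.766 to 0.962 over 18 pairs, against −0.663 to −0.0472 between lines), so the fit with the line as a block is given where it changed a call. DESeq2 1.42.0, limma-voom 3.58.1, other scalings and filters, and leaving out each line were alternatives. CPM used TMM scaling, log2 CPM a prior count of 2, and lengths per kilobase the exon union of GENCODE vM21 on mm10. The edgeR, blocked limma-voom and DESeq2 fits were also run on simulated counts with a single fixed spread and changes in the combination group only. That run did not cover the departure from additivity or the real spread of each gene.

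Values in the DMSO and combination libraries are given for genes called in combination versus DMSO, in either fit, and changed by at least 1.5 on the log2 scale. The same holds for genes called for a single inhibitor or for the departure, and for some further genes by their role. Values with a single inhibitor are given for only some of these genes. The genes, lists and motifs were chosen with earlier results of these data known. Intervals and floors of counts cover counting error only, as reads carry no molecular identifiers.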

Additional observations from a re-analysis of the deposited data

Results flagged for a closer look

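Epha2 departed from the sum of both single inhibitor effects by −3.41 on the log2 scale. It was the 1 guidance gene that passed the test of that difference without the line block. With any 1 line left out it no longer passed, and 0 of all tested genes did.

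Efnb3, a transmembrane ephrin, and Sema6d, a class 6 semaphorin, moved in opposite directions between lines by at least 1 log2 unit with the combination. Efnb3 was 1.12 log2 CPM above DMSO in A1005 and −1.33 in A1471, on 3 to 25 counts per library. Sema6d was 1.30 above DMSO in A1005, against −2.62 in A1129 and −2.07 in A1471, on 38 to 628 counts. These differences between lines were not tested, since each line has 1 library per treatment.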

How the results depend on the processing

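The replicate block, which pairs libraries by cell line, moved the counts most. With it 27, 3, 24, 19 and 8 guidance genes were called for combination versus DMSO, PD173074 versus DMSO, combination versus Crizotinib, combination versus PD173074 and the departure from additivity, against 7, 0, 6, 2 and 1 without it. Of all tested genes 54.8%, 2.14%, 53.4%, 39.8% and 16.2% were called with it, against 14.4%, 0%, 13.2%, 4.77% and 0.918% without it. The blocked limma-voom fit, added after seeing the data, gave 26, 3, 24, 18 and 8, beside 7651, 366, 7517, 5685 and 2320 of all 13836 tested genes. Crizotinib versus DMSO stayed at 0 in all settings run.

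Fitting only the libraries compared gave 3, 3 and 0 genes for combination versus DMSO, Crizotinib and PD173074. Over all tested genes this gave 594 of 12868, 616 of 12869 and 117 of 12821. DESeq2 called 6 genes for combination versus PD173074 and 2 for the departure, beside 12.1% and 3.64% of the genes it tested.

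Leaving out 1 line gave 1 to 10 genes for combination versus DMSO (lowest without A1471, highest without A1005), 1 to 9 versus Crizotinib, 0 to 3 versus PD173074 and 0 for the departure each time. Calls over all tested genes moved alike. For combination versus DMSO they were 120 of 14021 without A1471, 324 of 13791 without A1129 and 2021 of 13568 without A1005. They ran from 109 to 1835 versus Crizotinib and from 60 to 627 versus PD173074, with 0 for the departure. The replicate block was also fitted without A1005, A1129 or A1471 in turn, which left 13568, 13791 and 14021 tested genes. Counts of guidance genes are given with those of all tested genes in brackets. They were 27, 22 and 20 versus DMSO (6823, 5633 and 5153) and 25, 22 and 21 versus Crizotinib (6545, 5772 and 4880). Versus PD173074 they were 19, 13 and 12 (4734, 2352 and 2940), and for the departure 11, 5 and 2 (1679, 496 and 423). PD173074 versus DMSO had 1, 0 and 0 (59, 131 and 4). The line share of guidance genes lay between 38.5% (without A1005) and 67.0%. None of the 16 genes that met the rule for values in the DMSO and combination libraries changed direction for combination versus DMSO in any setting run. Sema3a, Sema3e and Sema4a, which passed in neither fit, changed sign for this comparison with the replicate block. Other scalings moved the median of all genes by at most 0.0464 log2. Lines with few counts of a gene limit Epha4, Epha8, Sema3b, Sema3d and Plxna4. With DMSO, Sema3b held 14 counts in A1129 and 7 in A1471.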
